A study of Mus musculus with 23 samples.

Results

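The cytosolic ribosomal protein genes encode the proteins that, with the ribosomal RNAs, build the small and the large subunit of the ribosome in the cytoplasm. They were taken as the protein-coding genes whose symbol is Rpl or Rps with a number and at most a closing a, x or y, together with Rplp0, Rplp1, Rplp2 and Rpsa. The rule found 76 of the 54838 genes of the count table, 30 of the small subunit and 46 of the large subunit. Ribosomal protein genes outside the rule, such as Rps3a1 and Fau, were kept apart in a list of their own.

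RNA of C57BL/6J mouse liver was sequenced in 23 libraries of 6 groups, to ask how the liver responds to recombinant candidate endocrine proteins injected at 1 µg/g body weight, 3 times at intervals of 1 day. Batch 2 held FSTL3 (4 libraries), EPDR1 (4), FCN2 (4) and vehicle (4), and batch 1 held LBP (3, numbered 2 to 4) and vehicle (4). FSTL3 is follistatin-like 3, a secreted binder of activins, EPDR1 is ependymin-related 1, FCN2 is ficolin 2, a lectin of the complement system, and LBP is lipopolysaccharide-binding protein, which hepatocytes secrete. All mice were of the same inbred strain, and their age was not analysed here. The labels do not say that each library came from its own animal, so the p-values rest on the spread among the libraries, which may be technical.

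Ribosomal proteins are made in near-equal amounts and joined to ribosomal RNA in the nucleolus. In mammals most of their mRNAs begin with a C followed by a run of pyrimidines, the 5′ terminal oligopyrimidine tract, through which the mTOR pathway and the RNA-binding protein LARP1 control their translation. Liver makes large amounts of plasma protein, and its ribosome content is known to follow feeding.

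The starts of members called in the comparisons below are printed to show the sequence class that the genes are known for. Each stretch runs from 15 bases before the RefSeq start to 15 bases from it, 5′ to 3′ on the gene's strand, and capitals mark the first CTTTC in it, a pyrimidine run that was searched for (Rpl35 holds another in lower case).
Rpl35: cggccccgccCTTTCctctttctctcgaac
Rpl35a: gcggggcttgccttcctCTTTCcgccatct
Rplp2: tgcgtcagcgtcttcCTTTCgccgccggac
Rpl13: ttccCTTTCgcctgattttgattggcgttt
Rps26: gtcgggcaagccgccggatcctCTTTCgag
Rps25: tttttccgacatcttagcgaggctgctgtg
Rpl41: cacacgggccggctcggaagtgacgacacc
Rpl23: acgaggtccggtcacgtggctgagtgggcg
Rps15: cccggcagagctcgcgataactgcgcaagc
Rpsa: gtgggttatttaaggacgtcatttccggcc
The first 5 hold CTTTC and the other 5 do not. The stretches at the further RefSeq starts of Rpl35a do not hold it. In GRCm38.p6 the stretches lie at chr2:39005117-39005146 on the minus strand (Rpl35), chr16:33056467-33056496 on the plus strand (Rpl35a, which has further starts in RefSeq) and chr7:141447636-141447665 on the plus strand (Rplp2). Those of Rpl13 and Rps26 lie at chr8:123102335-123102364 on the plus strand and chr10:128626492-128626521 on the minus strand. Those of Rps25, Rpl41 and Rpl23 lie at chr9:44407699-44407728 (plus), chr10:128549154-128549183 (minus) and chr11:97782425-97782454 (minus). Those of Rps15 and Rpsa lie at chr10:80292416-80292445 and chr9:120127751-120127780, both on the plus strand.

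RefSeq promoters were found for 56 of the 76 members. CTTTC within 20 bases of a start, on the gene's strand, was present in 18 of the 56 (32.1%), against 6.44% of all 27025 genes with a promoter. On the opposite strand it was present in 5.36% of the members and 5.67% of all genes. CTTCC, another pyrimidine run that can overlap CTTTC by an end base, was present on the gene's strand in 26.8% of the members and 10.3% of all genes, and on the opposite strand in 19.6% and 11.3%. A match describes the letters of these windows only.

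The members took a small and even share of the counts in most libraries. Their summed share was 0.211%, 0.212%, 0.200% and 0.189% of the counts in the 4 FSTL3 libraries. It was 0.335%, 0.381%, 0.333% and 0.423% with EPDR1, 0.351%, 0.293%, 0.344% and 0.272% with FCN2, and 0.346%, 0.358%, 0.379% and 0.372% with vehicle of batch 2. The 4 FSTL3 libraries were below all others, the EPDR1 libraries spread to either side of vehicle, and 3 of the 4 FCN2 libraries were below the lowest vehicle library. With LBP the share was 0.955%, 0.382% and 0.347%, against 0.363%, 0.340%, 0.357% and 0.324% in vehicle of batch 1. LBP replicate 2 was above every other library, with a Wilson 95% interval of 0.939% to 0.971% that covers counting error only. The members had between 2631 and 78313 counts in a library.

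**Figure D1:**
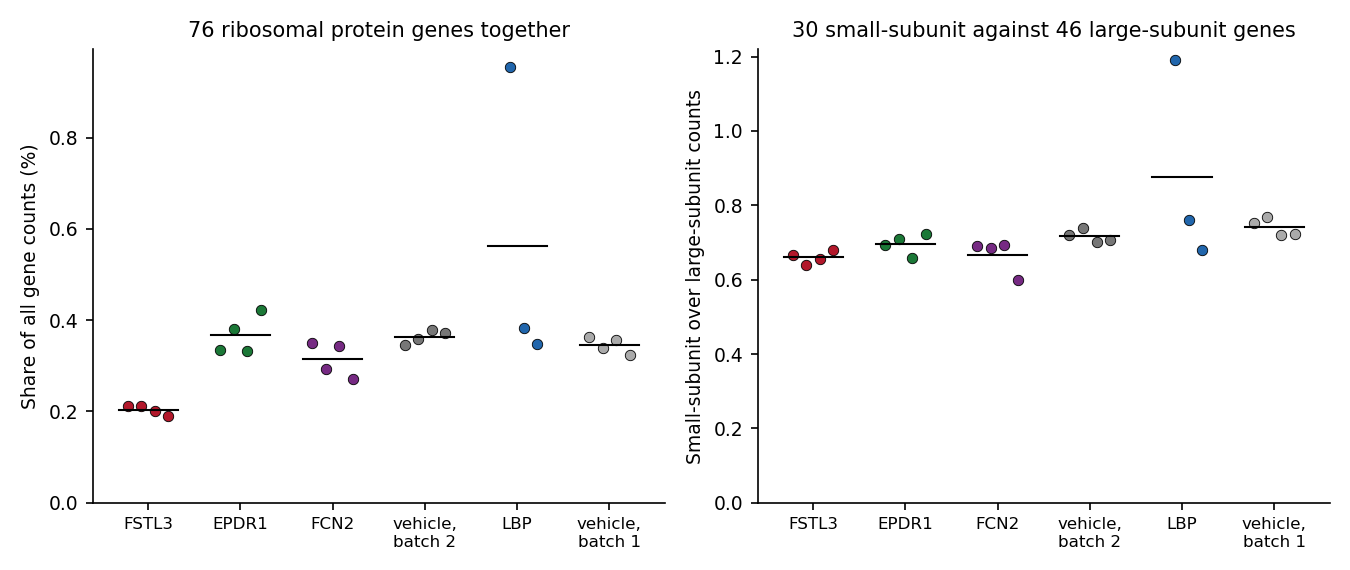
Left, summed share of the 76 ribosomal protein genes in each library's counts (percent), by group. Right, small subunit counts divided by large subunit counts; points are libraries and lines are group means. The 4 FSTL3 libraries lie between 0.189% and 0.212%, and LBP replicate 2 lies at 0.955%.

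Depth differed between the groups, with 9298871 to 10930800 counts in FSTL3, 3005739 to 4180013 in EPDR1, 2735871 to 7060707 in FCN2, 2517701 to 21892416 in vehicle of batch 2, 1463037 to 3712802 in LBP and 773499 to 8286793 in vehicle of batch 1. Liver identity was clear in 22 libraries, in which albumin took 5.26% to 8.36% of the counts. LBP replicate 2 stood apart, with 0.211% albumin, hepatocyte markers summing to 29900 CPM (counts scaled to a common library total by TMM; 88200 to 126000 CPM elsewhere) and pancreatic acinar markers to 1740 CPM (5.67 to 686 CPM elsewhere). The FSTL3 libraries stood apart as well. Small structural RNAs, such as small nucleolar and small nuclear RNAs, took 0.667% to 0.753% of their counts, against 0.00355% to 0.0817% elsewhere, and mitochondrial coding genes took 1.97% to 2.13%, against 4.15% to 13.9%. In bulk tissue, fewer cells of a type and less RNA per cell cannot be told apart.

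The members spanned a wide range of levels. Per kb of exon length, the highest means over all libraries were 330 CPM per kb for Rplp1, of the stalk that recruits elongation factors, 286 for Rps15, of the small subunit head, and 266 for Rpl4, which lines the exit tunnel of the nascent chain. The lowest were 0.117 for Rpl23a, 0.353 for Rps6, the substrate of the S6 kinases, and 0.441 for Rps16. A gene's main mRNA is here the coding transcript ranked first by annotation, which need not be the one that liver expresses. The share of its 50-base stretches that occur in transcripts of no other gene ranged from 1.35% to 100% over the members. It had a median of 44.0% and was under 50% in 46 of them. Across the 76 genes it went with the level per kb (Spearman's rho = 0.591, a description across genes that share the same libraries). No setting for reads that match several genes is recorded in the table's header; the counting program leaves them out by default, and if that was so here, a low count does not show a low level. Counts for 63 members passed the low-count filter, and 13 did not, with 17 to 187 counts each over all libraries. The filter asks for a minimum level in about as many libraries as the smallest group holds (3), whatever their groups. A member can therefore pass it through a single group. Rpl19, Rpl23a, Rpl24, Rpl28, Rpl36a, Rpl38, Rps6, Rps10, Rps16, Rps23, Rps27 and Rps29 were among the 13. The median unique share was 45.5% in the 63 and 20.7% in the 13.

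FSTL3 livers had lower counts of many members than vehicle livers of the same batch. Of the 63 tested, 33 fell and 0 rose (edgeR's quasi-likelihood test, adjusted p under 0.05), where 16% of all 11969 genes tested fell and 23.2% rose. The median log2 fold change was -0.94 over the 63 and 0.063 over all genes, and 56 of the 63 were below 0. In 44 of the 63 every FSTL3 library was below every vehicle library (23.8% of all genes), and in 2 every one was above (29.9% of all genes). In the small subunit 14 of 23 fell, with a median of -1.13, and in the large subunit 19 of 40 fell, with a median of -0.74. The ratio of small to large subunit counts was 0.639 to 0.679 in FSTL3 and 0.702 to 0.739 in vehicle.

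**Figure D2:**
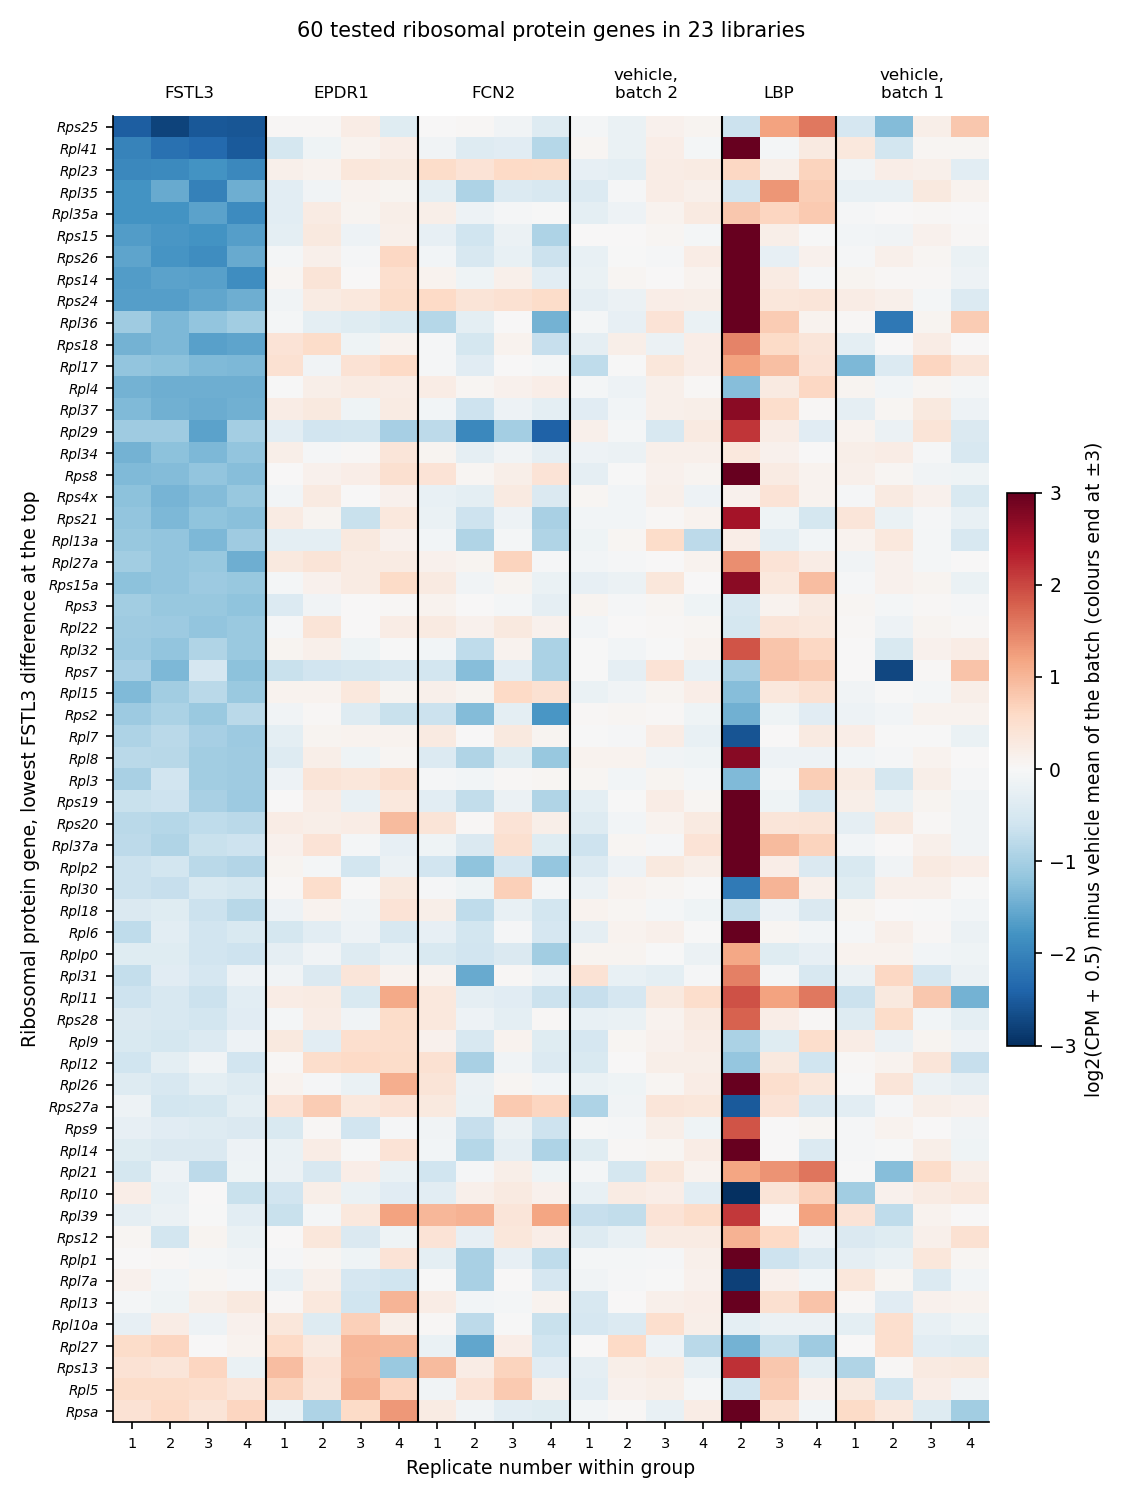
Difference of log2(CPM + 0.5) from the mean level of the batch's vehicle for 60 of the 63 tested members (rows, ordered by the FSTL3 fold change) in the 23 libraries (columns, by group and replicate); blue is lower, red is higher, and the colours end at 3 in either direction. Most rows are blue in all 4 FSTL3 libraries, and LBP replicate 2 holds both dark red and dark blue rows.

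Rps25, a small subunit protein needed for initiation at some viral internal entry sites, had the largest fall. It was at 3.95, 3.13, 3.71 and 3.67 CPM in FSTL3, against 23.4, 21.1, 26.6 and 25.7 CPM in vehicle, and the groups did not overlap. Its log2 fold change was -2.73 ± 0.31 (SE; edgeR adjusted p = 5.77e-07). Rpl41, a very short basic peptide of the large subunit, was at 16.4, 13.9, 13 and 11.2 CPM in FSTL3, against 69.5, 58.2, 76.8 and 63.9 CPM in vehicle (log2 fold change -2.29 ± 0.58, edgeR adjusted p = 0.00307). Every FSTL3 library was again below every vehicle library.

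Rpl23, which can bind the p53 regulator MDM2 when free of the ribosome, was at 24.1, 24.6, 26.8 and 24.3 CPM in FSTL3, against 78.4, 76.9, 109 and 111 CPM in vehicle (log2 fold change -1.91 ± 0.17, edgeR adjusted p = 2.99e-08). Rpl35, at the exit of the nascent chain tunnel, was at 3.03, 3.82, 2.53 and 3.92 CPM in FSTL3, against 8.72, 11.4, 13.7 and 13.2 CPM in vehicle (log2 fold change -1.80 ± 0.25, edgeR adjusted p = 6.33e-06). Rpl35a, mutated in some people with Diamond-Blackfan anaemia, was at 23.1, 23.4, 26.5 and 21.8 CPM in FSTL3, against 66.7, 73.5, 88.4 and 98.9 CPM in vehicle (log2 fold change -1.79 ± 0.16, edgeR adjusted p = 2.74e-08). In these 3 genes the vehicle libraries spread more widely than the FSTL3 libraries, and the groups did not overlap.

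Rpl4, the member with the most counts, was at 238, 233, 230 and 232 CPM in FSTL3, against 610, 580, 712 and 657 CPM in vehicle (log2 fold change -1.46 ± 0.25, edgeR adjusted p = 8.6e-05). Rps3, at the entry of the mRNA channel, was at 154, 143, 143 and 137 CPM in FSTL3, against 337, 306, 331 and 290 CPM in vehicle (log2 fold change -1.13 ± 0.17, edgeR adjusted p = 2.2e-05). Both genes have little shared sequence, with 83.5% of the 50-base stretches of Rpl4 and 97% of those of Rps3 found in no other gene. Rpl22, Rps2, of the small subunit, and Rpl3, of the peptidyl transferase centre, also fell, by 1.11, 1.00 and 0.92 on the log2 scale.

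The members that did not pass the test included the stalk. Rplp1 was at 104, 105, 98.5 and 95.8 CPM in FSTL3, against 98.9, 97.8, 99.2 and 114 CPM in vehicle, so the groups overlapped (log2 fold change -0.026 ± 0.52). The log2 fold change was -0.48 ± 0.24 for Rplp0, -0.72 ± 0.50 for Rplp2 and -0.84 ± 0.48 for Rps19, another Diamond-Blackfan gene, although every FSTL3 library was below every vehicle library in these 3. Without LBP replicate 2, which is in neither group but enters the shared spread, the edgeR adjusted p was 0.00117, 0.00205 and 6.1e-05. Rpl5 and Rpl11, which with 5S ribosomal RNA bind MDM2, had log2 fold changes of 0.54 (edgeR adjusted p = 0.0839) and -0.46. Rpl5 was at 4.5, 4.43, 4.34 and 3.84 CPM in FSTL3, against 2.24, 3.23, 3.32 and 2.78 CPM in vehicle. Rpsa, of the small subunit and also known as the laminin receptor, was at 4.87, 5.47, 4.70 and 5.67 CPM in FSTL3, against 3.24, 3.55, 2.91 and 4.16 CPM in vehicle. Its log2 fold change was 0.57, and -0.15 with the counts of its named pseudogenes added. Rpl5 and Rpsa were the 2 members with every FSTL3 library above every vehicle library. Rps13, Rps27a, made as a fusion with ubiquitin, Rpl10, joined last to the large subunit, and Rpl39, at the tunnel exit, had 0.39, -0.37, -0.18 and -0.17, none of which passed the test.

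**Figure D3:**
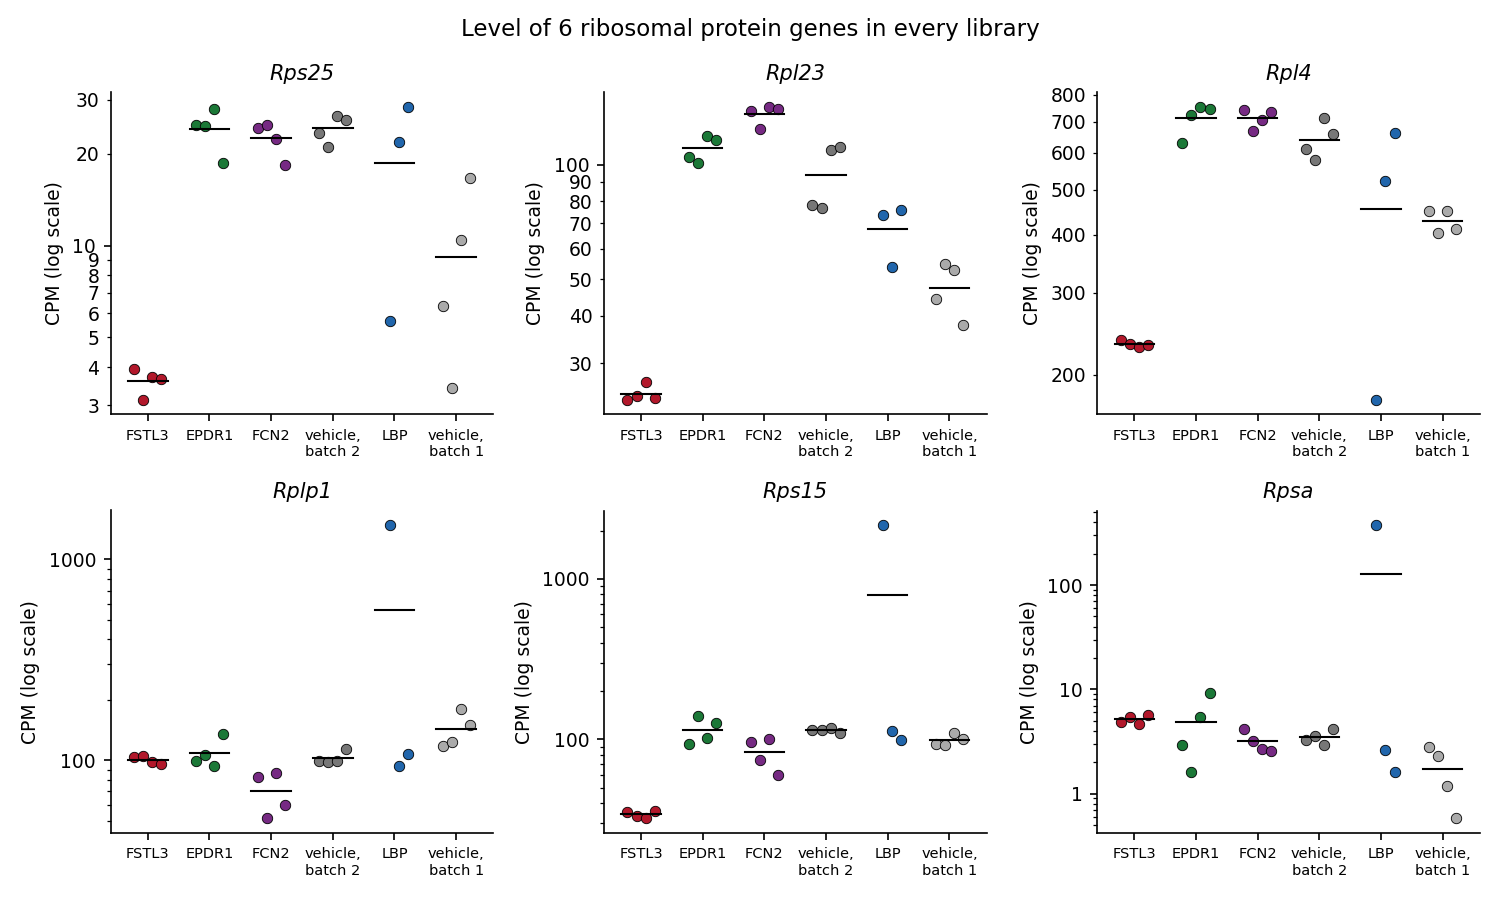
CPM (log axis) of Rps25, Rpl23, Rpl4, Rplp1, Rps15 and Rpsa in each library, by group; points are libraries and lines are group means. Rps25, Rpl23, Rpl4 and Rps15 are lower in all 4 FSTL3 libraries than in all 4 vehicle libraries of batch 2, and LBP replicate 2 is far above the others in Rplp1, Rps15 and Rpsa.

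Markers of other cells and RNA classes moved with FSTL3. Of all genes tested, 23.2% rose and 16% fell. Of 6 sinusoidal endothelial markers, 4 rose (Stab1, Stab2, Ptprb and Kdr), with a summed level of 449 to 544 CPM in FSTL3 and 152 to 188 CPM in vehicle. Lyve1 (0.86) and Clec4g (-0.091) did not pass the test. Of 6 Kupffer cell markers, 3 fell (Marco, Cd5l and Timd4), with 108 to 118 CPM in FSTL3 and 128 to 366 CPM in vehicle. Vsig4 (-0.89), Clec4f (-0.18) and Adgre1 (-0.027) did not pass the test. Of 7 hepatocyte markers, Apob rose (1.48) and Apoa1 and Fgb fell, by 1.17 and 1.27 on the log2 scale, with a summed level of 97900 to 109000 CPM in FSTL3 and 92200 to 108000 CPM in vehicle. Of 4 stellate cell markers Reln rose (1.98), and of 2 cholangiocyte markers tested Sox9 fell, by 1.26 on the log2 scale. The members' share of nuclear protein-coding counts alone, which leaves out the small and mitochondrial RNAs, was 0.224% to 0.237% in FSTL3 and 0.383% to 0.438% in vehicle. The part of the marker and RNA class shifts in the lower members was not tested. Marker results with the exon length trend described below removed are not given here. A length pattern and a shift of cells therefore cannot be told apart in these markers.

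Exon length moved with the FSTL3 comparison. Over all 11969 genes the log2 fold change rose with the annotated exon length (Spearman's rho = 0.458 across genes), and over the 63 members less so (0.242). Among genes under 1 kb, 6 of 7 members fell, with a median of -1.49, where 45.4% of all genes fell, with a median of -0.84. From 1 to 2 kb, 11 of 23 members fell (median -0.94; all genes 37.4%, -0.59), and from 2 to 4 kb, 12 of 27 fell (median -0.59; all genes 21.4%, -0.21). Over 4 kb, 4 of 6 members fell, with a median of -0.99, where 6.57% of all genes fell, with a median of 0.35. In each class the members' median was lower than that of all genes. This length merges the exons of all transcripts, and the members' main mRNA had a median of 43.6% of it. Of the members over 4 kb, the main mRNA was 679 bases in Rpl18, 774 in Rps19, 1613 in Rps24 and 1908 in Rps3. By the same annotation rank it was 3706 bases in Rps20 and 5130 in Rps15a, whichever transcript liver expresses. The classes and the trend fit below therefore do not match members with genes of like mRNA length. Against main mRNA length the members' rho was 0.0766, though the transcripts that liver expresses may differ in length. With a smooth trend on exon length taken out of the counts, 19 of the 63 fell and 0 rose, where 11.8% of all genes fell and 14.9% rose, and the members' median was -0.48. Rps25 (-2.43), Rpl35a (-1.65), Rpl41 (-1.56), Rpl23 (-1.37), Rps3 (-1.16), Rpl35 (-1.09), Rpl4 (-0.99), Rpl22 (-0.86) and Rpl3 (-0.73) still passed the test, and Rps2 did not (-0.48, edgeR adjusted p = 0.147). Rplp1 turned to 1.02 (edgeR adjusted p = 0.0694), and with LBP replicate 2 also left out it was 1.02 and passed the test as higher (edgeR adjusted p = 5.51e-08). In that last setting 29 members fell and 3 rose, where 2763 of 12244 genes fell and 2922 rose. What the exon length trend stems from was not tested. With LBP the members' medians in the 4 length classes, short to long, were 1.21, 0.83, 0.39 and 1.70, and those of all genes 0.57, 0.22, 0.025 and -0.076.

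**Figure D4:**
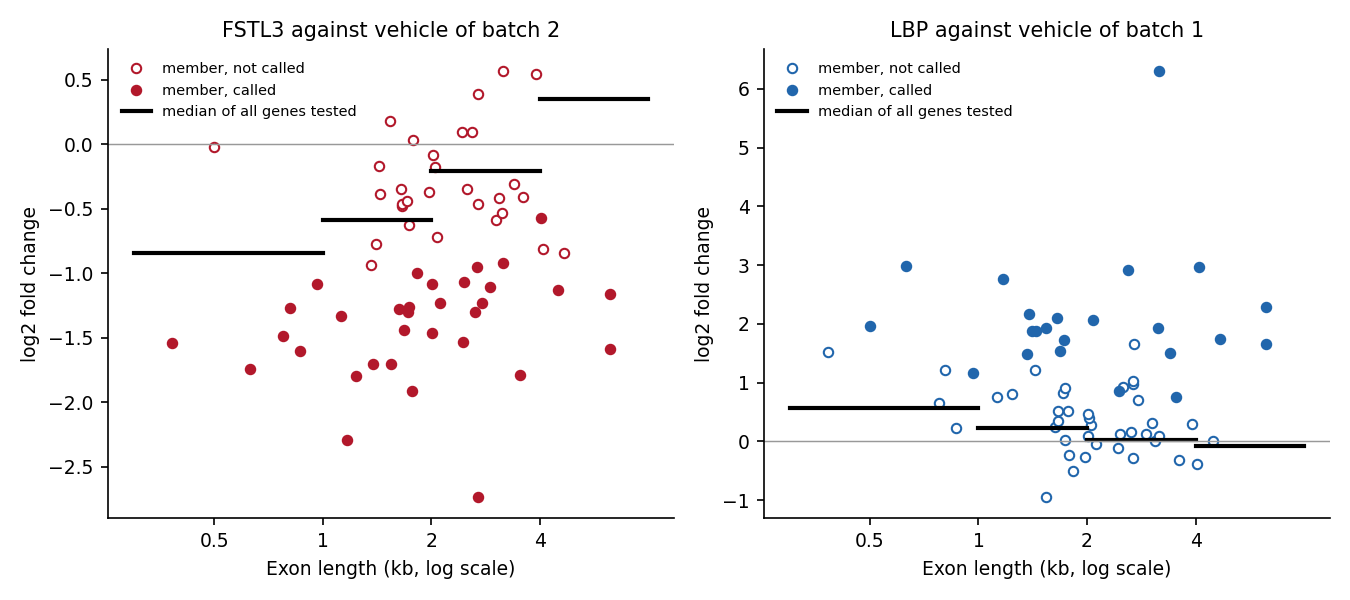
Log2 fold change of the 63 members against exon length (kb, log axis) with FSTL3 over vehicle of batch 2 (left) and LBP over vehicle of batch 1 (right); filled points passed the test and black lines are the medians of all genes tested in each length class. With FSTL3 the lines climb with length, to 0.35 over 4 kb, where the members' median is -0.99.

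Other features of the members were set beside the FSTL3 difference. Members with CTTTC at a start had a median log2 fold change of -1.11 (14 tested) and those without -0.65 (32). Members with a small nucleolar RNA gene inside had a median of -0.81 (27) and those without -1.01 (36). The median was -1.13 in the 27 with at least 50% of their 50-base stretches unique and -0.55 in the other 36. Across the 63, the fold change went down with the level (Spearman's rho = -0.445). These are descriptions across genes and carry no test.

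Related gene groups were counted in the same comparison, in which 16% of all genes fell and 23.2% rose. Of 8 paralogs or ribosome-associated genes outside the rule (12 listed), 4 fell and 0 rose, with a median of -0.84. They were Rps4l (-1.47), Rps27l (-1.30), Rps3a1 (-1.10) and Rpl22l1 (-0.97). Of 25 translation factors and other genes whose mRNAs are known to start with an oligopyrimidine tract, 13 fell and 0 rose, with a median of -0.67. Among them were Naca, of the complex that meets nascent chains (-1.70), Gas5, a small nucleolar RNA host (-1.60), and Eef1b2, an elongation factor subunit (-1.25). Of 34 ribosome biogenesis genes, 9 fell and 4 rose, with a median of -0.36. Ncl, nucleolin, fell by 1.53 and Ebna1bp2, a nucleolar protein of large subunit assembly, by 1.07 on the log2 scale, while Taf1d, of the RNA polymerase I initiation factor, rose (1.01). Of 14 genes that control ribosome synthesis, 5 rose and 2 fell, with a median of 0.075. Larp4, an RNA-binding protein (1.00), and Tsc1, an inhibitor of mTOR signalling (0.71), rose, and Rps6kb2, an S6 kinase, fell by 0.86. With the length trend removed, where 11.8% of all genes fell and 14.9% rose, 0 of the 8 paralogs, 8 of the 25 oligopyrimidine tract genes, 7 of the 34 biogenesis genes and 2 of the 14 control genes fell. Of these groups only the control genes then held 1 that rose, and their median was -0.17. With LBP replicate 2 left out of the fit, 3114 of 12244 genes fell and 3836 rose. There 6 paralogs, 18 oligopyrimidine tract genes, 15 biogenesis genes and 3 control genes fell, and 0, 0, 5 and 5 rose.

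FSTL3 was also set against the other 2 proteins of its batch, which share the FSTL3 libraries with the comparison above. Against EPDR1, 35 members fell and 0 rose (all genes 18% and 24%), with a median of -0.94, and with the length trend removed 23 fell and 1 rose (all genes 14.1% and 16.1%), with a median of -0.55. Against FCN2, 28 fell and 0 rose (all genes 18.4% and 25.9%), with a median of -0.72, and with the length trend removed 17 fell and 3 rose (all genes 17.2% and 18.8%), with a median of -0.26. Rps25 averaged 3.61 ± 0.347 CPM with FSTL3, 24 ± 3.97 CPM with EPDR1 and 22.4 ± 2.90 CPM with FCN2, against 24.2 ± 2.47 CPM with vehicle (SD, n = 4 each). Rpl4 averaged 233 ± 3.15 CPM with FSTL3, 714 ± 57.3 CPM with EPDR1 and 713 ± 32.4 CPM with FCN2, against 640 ± 57.3 CPM with vehicle. In both genes FSTL3 was the lowest of the 4 groups, and the other 3 differed by less than FSTL3 did from any of them. Against vehicle of batch 1, which also crosses batches, 25 members fell and 3 rose (all genes 13.2% and 18.7%; with the length trend removed 11 fell and 4 rose), the 3 being Rpl5 (1.03), Rpl21 (1.09) and Rpl39 (1.49).

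EPDR1 livers showed no called member. Of the 63, 0 rose and 0 fell in edgeR's test, where 0.0% of all genes rose and 0.0% fell; 1 member had an unadjusted p under 0.05, and DESeq2 called 0, with 2 unadjusted. The median log2 fold change was 0.098, within a range of -0.64 to 0.79. The member was Rpl5, at 4.91, 3.84, 6.66 and 4.82 CPM with EPDR1, against 2.24, 3.23, 3.32 and 2.78 CPM with vehicle (log2 fold change 0.79 ± 0.26, edgeR adjusted p = 1.0). Rps27a (0.60 ± 0.33), Rps7 (-0.58 ± 0.39) and Rpl29 (-0.64 ± 0.43) came next in their directions. None of the genes in the 4 related groups was called.

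FCN2 livers showed no called member in the main edgeR fit of all 23 libraries and a mixed set without LBP replicate 2. In edgeR's test 0 of the 63 rose and 0 fell, where 0.159% of all genes rose and 0.652% fell; 6 members had an unadjusted p under 0.05, and DESeq2 called 1 higher and 3 lower. The median log2 fold change was -0.11. Every FCN2 library was below every vehicle library in 11 members (9.48% of all genes) and above in 3 (9.12%). Rps2 was at 36.5, 22.8, 46.1 and 16.5 CPM with FCN2, against 58.5, 59.2, 58.1 and 52.1 CPM with vehicle (log2 fold change -0.90 ± 0.26, edgeR adjusted p = 0.0863). Its FCN2 libraries spread widely and all lay below vehicle.

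Rpl23 was at 138, 124, 142 and 140 CPM with FCN2, against 78.4, 76.9, 109 and 111 CPM with vehicle (log2 fold change 0.54 ± 0.17, edgeR adjusted p = 0.107). With the length trend removed it was 0.65 and passed the test as higher (edgeR adjusted p = 0.0444), where 53 of 11969 genes rose. Rpl39 was at 79.4, 82.8, 51.4 and 90.9 CPM with FCN2, against 24.2, 23.5, 53.1 and 58.0 CPM with vehicle (log2 fold change 0.96 ± 0.38, edgeR adjusted p = 0.20). The FCN2 and vehicle libraries overlapped in Rpl39 and not in Rpl23. Without LBP replicate 2, which is in neither group but enters the shared spread, 10 members fell and 2 rose, where 10.1% of 12244 genes fell and 8.81% rose. Those that fell included Rplp0, Rplp1 and Rplp2 of the stalk, Rpl8 and Rpl29 of the large subunit, and Rps2, Rps15 and Rps19 of the small subunit. Those that rose were Rpl23 and Rps24. In the related groups, 1 of 34 ribosome biogenesis genes and 1 of 14 genes that control ribosome synthesis fell with all 23 libraries in the fit. Without LBP replicate 2, 3 of 8 paralogs, 2 of 25 oligopyrimidine tract genes, 6 biogenesis genes and 4 control genes fell, and 0, 5, 2 and 1 rose.

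LBP livers had higher counts of many members than vehicle livers of batch 1, and 1 library set most of the difference. With all 3 LBP libraries, 23 of the 63 rose and 0 fell in edgeR's test, where 6.73% of all genes rose and 0.969% fell, and the median log2 fold change was 0.81 (0.0 over all genes). In the small subunit 10 of 23 rose and in the large subunit 13 of 40. Every LBP library was above every vehicle library in 11 members (4.62% of all genes) and below in 2 (6.23%). With only LBP replicates 3 and 4, both were above every vehicle library in 20 members (10.9%) and below in 5 (11.5%). Without LBP replicate 2, which leaves 2 LBP libraries, 3 rose and 0 fell, where 0.515% of 12244 genes rose and 0.212% fell, and the members' median was 0.25. Rps25 (1.29) and Rpl35a (0.73) were among the 3. The count was 11, 13, 13 or 12 when vehicle replicate 1, 2, 3 or 4 of batch 1 was left out, fits whose counts over all genes are not given here. It was 0 when only the libraries of these 2 groups were in the fit, where 0 of all 10017 genes were called. There 19 of 52 members tested had an unadjusted p under 0.05.

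Rpsa, at 375, 2.6 and 1.61 CPM in LBP replicates 2, 3 and 4, against 2.83, 2.28, 1.19 and 0.583 CPM in vehicle, had the largest fitted difference (log2 fold change 6.31 ± 1.21, edgeR adjusted p = 0.0106). It rested on 331 counts in replicate 2, and the other 2 LBP libraries, with 8 and 6 counts, overlapped vehicle. Rps15 was at 2160, 112 and 98.7 CPM with LBP, against 93.0, 92.4, 109 and 101 CPM with vehicle (log2 fold change 2.99 ± 0.63, edgeR adjusted p = 0.0107). Without replicate 2 the log2 fold change was 0.50 for Rpsa and 0.083 for Rps15, and neither passed the test.

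Rps20, of the small subunit head, was at 616, 38.1 and 38.5 CPM with LBP, against 24.4, 35.4, 30.1 and 27.4 CPM with vehicle (log2 fold change 2.96 ± 0.60, edgeR adjusted p = 0.0106). Rpl13, of the large subunit, was at 138, 8.46 and 11 CPM with LBP, against 6.01, 4.57, 6.5 and 6.41 CPM with vehicle (log2 fold change 2.92 ± 0.65, edgeR adjusted p = 0.0116). These 2 genes were above vehicle in every LBP library, with log2 fold changes of 0.42 and 0.66 without replicate 2 that did not pass the test. Rpl41 was at 1230, 63.5 and 79.9 CPM with LBP, against 81.6, 44.5, 68.4 and 68.2 CPM with vehicle (log2 fold change 2.77 ± 0.61, edgeR adjusted p = 0.0112; 0.092 without replicate 2). The stalk genes Rplp1 and Rplp2 had 1.96 and 2.07 and passed the test, and -0.52 and -0.12 without replicate 2, where they did not. Rpl27 (-0.94) and Rpl18 (-0.39) did not pass it.

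Library by library, the log2 ratio to the vehicle mean had a median of 1.39 over the 63 members in LBP replicate 2, 0.28 in replicate 3 and 0.12 in replicate 4. In replicate 2 it ranged from -3.21 to 7.40, with 36 members over 1 and 13 under -1. Some low values there rest on few counts, with 0 for Rpl10 (-3.21) and Rps27a (-2.51) and 1 for Rpl7a (-2.80). It ranged from -0.66 to 1.35 in replicate 3 and from -1.05 to 1.61 in replicate 4. Replicate 2 was above all 22 other libraries in 31 members and below all of them in 12. All genes were not counted in these ways, so the spread is not shown to be particular to the members. Its small to large subunit ratio was 1.19, against 0.760 and 0.679 in the other LBP libraries and 0.721 to 0.768 in vehicle.

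**Figure D5:**
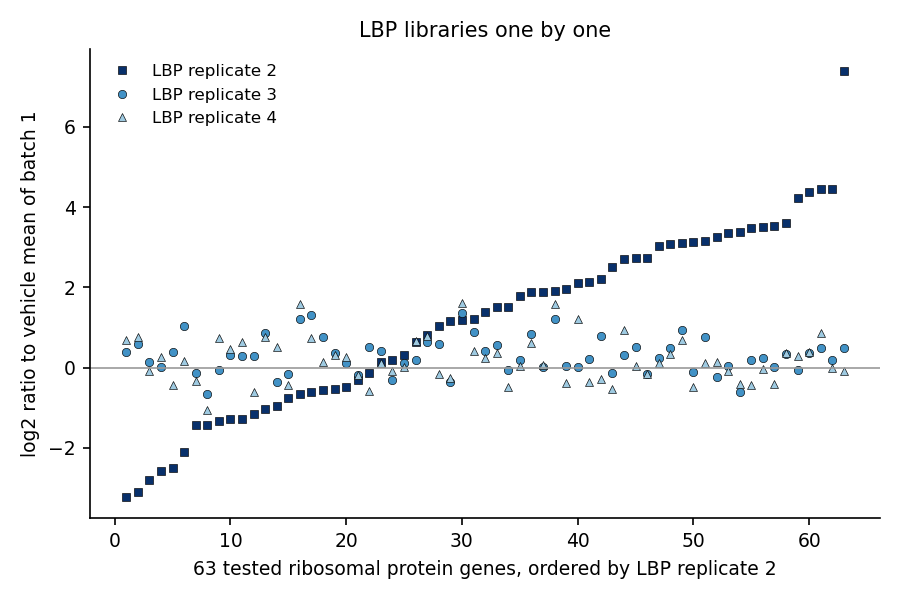
Log2 ratio of each member's CPM to the vehicle mean of batch 1 in LBP replicates 2 (squares), 3 (circles) and 4 (triangles), for the 63 members ordered by replicate 2. Replicate 2 spreads from -3.21 to 7.40, and replicates 3 and 4 stay between -1.05 and 1.61.

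Acinar and red cell markers moved with LBP replicate 2. Of 9 pancreatic acinar markers, 8 were tested and 5 rose with LBP, and 1, Amy2a5, was at 0 in every library. Their summed level was 1740, 21.5 and 686 CPM in LBP replicates 2, 3 and 4, and 7.78 to 99.1 CPM in vehicle. The 2 erythroid markers summed to 1870, 232 and 179 CPM with LBP and to 113 to 224 CPM with vehicle. The member share was 0.955% in LBP replicate 2, with 0.211% albumin, and 0.347% in LBP replicate 4, with 7.64% albumin. Vehicle averaged 0.346% ± 0.0176 (SD, n = 4). The part of these cells in the LBP result was not tested. In the related groups, 4 of 25 oligopyrimidine tract genes, 6 of 34 biogenesis genes and 2 of 8 paralogs rose and 0 fell, and 2 of 14 genes that control ribosome synthesis fell and 0 rose, where 6.73% of all genes rose and 0.969% fell. Without replicate 2, 2 oligopyrimidine tract genes, 1 biogenesis gene and 0 paralogs rose, 0 control genes rose and none in the 4 groups fell, where 0.515% of 12244 genes rose and 0.212% fell.

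The 2 vehicle groups differed in some members. In batch 2 against batch 1, 9 members were higher and 1 lower, where 5.41% of all genes were higher and 6.76% lower, with a median log2 difference of 0.37. The 9 were Rpl11 (1.79), Rpl39 (1.65), Rpl21 (1.39), Rps25 (1.25), Rpl35a (1.21), Rpl15 (1.09), Rpl27a (1.08), Rpl35 (1.03) and Rpl23 (0.99), and the lower was Rpl27 (-1.50). Rpl27 was at 3.89, 5.71, 3.03 and 2.92 CPM in vehicle of batch 1 and at 2.42 CPM or less in every other library. It may have passed the low-count filter through that group alone, which favours a call as lower in batch 2. Rps25, Rpl35a, Rpl35 and Rpl23 are also among the 5 members with the largest falls in FSTL3, a comparison that shares these vehicle libraries. Rps25 averaged 3.61 ± 0.347 CPM in FSTL3, below both the 24.2 ± 2.47 CPM in vehicle of batch 2 and the 9.20 ± 5.71 CPM in vehicle of batch 1 (SD, n = 4 each). Without LBP replicate 2, 28 members were higher and 3 lower in vehicle of batch 2, where 14.9% of 12244 genes were higher and 15.4% lower.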

How the data were processed

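Liver RNA of 23 libraries was analysed from the raw read counts per gene that the authors deposited. The submitters' processing notes name STAR 2.6.0c for aligning the 50-base reads, with GRCm38 as the build. Exon counts were made by featureCounts 1.6.3 on Ensembl 95, per the file headers. No strand, pair or multi-mapping option is recorded there, so antisense genes and near-identical copies cannot be told apart. Libraries were made from 800 ng of total RNA, per the labels. Symbols and biotypes came from GENCODE M21 (54809 of 54838 IDs) and start sequences from RefSeq.

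Genes passing filterByExpr (11969) were fitted with edgeR 4.0.16 (quasi-likelihood, robust, TMM) in R 4.3.3, with group as the only term and all 23 libraries, and p-values were adjusted by Benjamini-Hochberg over all genes tested (threshold 0.05). The standard error is the log2 fold change over the root of F. Exon length is the length column of the count table, and its trend was taken out with a loess fit (span 0.4). CPM used TMM-scaled totals, and the log2 ratio per library used a pseudocount of 0.5 CPM. Uniqueness was computed on 50-base stretches of each gene's main GENCODE transcript, picked by annotation rank and not by its reads. The procedure was checked on simulated counts. Named members were the 5 called with the largest change in each direction, otherwise the 2 with the smallest p, plus a set list and the extremes of level. A few genes are not reported here by name. The members and lists were chosen with earlier results of these data known. No 2 replicates agreed within counting noise (chi-square per degree of freedom 2.27 to 186 in 33 pairs). Alternatives were DESeq2 1.42.0, its size factors, no low-count filter, only the libraries compared, a replicate block, pseudogene counts added, the length trend removed and each replicate left out.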

Additional observations from a re-analysis of the deposited data

Results flagged for a closer look

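Of 165 sets of 4 libraries examined for the members' summed measures and the named members, 6 held a library far from the other 3, and chance alone flags about 1 in 20. FCN2 replicate 4 had a small to large subunit ratio of 0.598, where the other FCN2 libraries had 0.684 to 0.692. Rpl29 was at 1.63 CPM in FSTL3 replicate 3 (2.57 to 2.67 CPM in the others), and Rpl3 at 11.8 CPM in FSTL3 replicate 2 (8.25 to 8.73). Rps20 was at 123 CPM in EPDR1 replicate 4 (72.4 to 73.9). In vehicle of batch 2, replicate 4 had Rplp1 at 114 CPM (97.8 to 99.2) and Rps2 at 52.1 CPM (58.1 to 59.2).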

How the results depend on the processing

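The count of members called with FSTL3 against vehicle was 33, and 27 with DESeq2, 48 of 68 tested with only the libraries compared (47 lower and 1, Rpsa, higher), 19 with the length trend removed, and 29 lower and 3 higher with the trend removed and LBP replicate 2 out. With FCN2 it was 0, and 4 with DESeq2, 9 with only the libraries compared, 1 with the trend removed and 14 with the trend removed and LBP replicate 2 out. With LBP it was 23, and 15 with DESeq2, 11 with no low-count filter, 0 with only the libraries compared, 15 without the FSTL3 libraries and 4 with the trend removed and LBP replicate 2 out. FSTL3 against vehicle of batch 1 went to 46 with only the libraries compared and 15 with the trend removed, and vehicle of batch 2 against batch 1 to 29 with only the libraries compared and 31 with the trend removed and LBP replicate 2 out. DESeq2 gave no adjusted p for 14 to 18 members, which are not counted. The calls over all genes changed as well. With only the libraries compared, 4244 of 13097 genes rose and 3685 fell with FSTL3. The counts were 569 and 840 of 10155 with FCN2, and 0 of 10017 with LBP. They were 4129 and 3455 of 13106 for FSTL3 against vehicle of batch 1, and 1905 and 2057 of 9928 between the vehicles. DESeq2 called 3103 higher and 2143 lower of 11969 with FSTL3, 432 and 329 with FCN2, and 994 and 194 with LBP. Leaving out each replicate gave 31 to 44 (FSTL3), 0 to 0 (EPDR1), 0 to 12 (FCN2), 3 to 30 (LBP), 31 to 45 (FSTL3 against EPDR1), 25 to 36 (against FCN2), 20 to 44 (against vehicle of batch 1) and 8 to 31 (the vehicles). Most of these fits, and the one with no low-count filter, are given without counts over all genes. A change in the members there cannot be told from a change in all genes. The settings that also leave out the FSTL3 libraries or combine both changes were chosen after seeing the data. With the trend removed, 53 of 11969 genes rose and 82 fell with FCN2, and 1539 and 1276 for FSTL3 against vehicle of batch 1. With LBP replicate 2 also out, 1304 of 12244 rose and 1113 fell with FCN2. The counts there were 65 and 44 with LBP, and 1778 and 1848 between the vehicles. Without the FSTL3 libraries 475 of 10936 genes rose and 44 fell with LBP. The cause of these changes was not tested.

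Deviations of same-numbered replicates correlated at 0.0433 to 0.0801 for FSTL3 against vehicle and at -0.123 to 0.293 over all comparisons. Of 4 pairs, 3 were over 0.1 for EPDR1 against vehicle and for FSTL3 against EPDR1, and in these and in FCN2 against vehicle 3 of 4 samples correlated best with their own number. No comparison had every pair over 0.1 or every sample best with its own number, so the numbers were not taken to pair the samples. With the replicate block edgeR called 32 members with FSTL3, 0 with EPDR1, 0 with FCN2 and 0 with LBP. With EPDR1, FCN2 and LBP, 1, 7 and 34 members had an unadjusted p under 0.05. It called 34, 28, 27 and 10 members for FSTL3 against EPDR1, FCN2 and vehicle of batch 1, and between the vehicles. There 2831, 3005, 2189 and 595 of all 11969 genes rose and 2104, 2128, 1550 and 761 fell. FSTL3, EPDR1, FCN2 and LBP gave 2669, 0, 12 and 2 higher and 1837, 0, 37 and 0 lower.

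Single members changed sign in places. With FSTL3, the trend removed gave 0.26 (Rpl10), 0.49 (Rpl39), 0.084 (Rplp0), 1.02 (Rplp1) and 0.10 (Rps27a), and with LBP replicate 2 also out 0.24, 0.53, 0.08, 1.02 and 0.11; in that setting Rplp1 passed the test as higher (edgeR adjusted p = 5.51e-08). Rpsa was -0.15 with pseudogene counts added. Rpl39 was 0.0062 and 0.079 without vehicle replicate 3 or 4 of batch 2 (range over replicates left out -0.37 to 0.079), and Rplp1 0.028 without replicate 4 (-0.072 to 0.028). With LBP and no replicate 2, Rplp0 was -0.30, Rplp1 -0.52, Rplp2 -0.12 and Rps19 -0.31 (reaching 0.59, 2.44, 2.54 and 2.2 with another replicate out), and with the trend removed too Rpl41 was -0.0036, Rplp0 -0.36, Rplp1 -0.78 (passing as lower, edgeR adjusted p = 0.0118), Rplp2 -0.16, Rps15 -0.13 and Rps19 -0.31. Of the named members' other values, leaving out replicates aside, 345 kept direction and side of the threshold, 28 lost it and 17 gained it.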

Other observations

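The genome holds many pseudogenes of ribosomal protein genes. By name, 297 pseudogenes of 59 members were in the count table, with 9407 counts in all against 392089 for the members. They took 0.00243% to 0.00289% of the counts with FSTL3, 0.00988% to 0.0127% with EPDR1 and 0.0104% to 0.0122% with FCN2, against 0.00839% to 0.0108% with vehicle of batch 2. With LBP they took 0.0334%, 0.00637% and 0.00824%, against 0.00429% to 0.00551% with vehicle of batch 1. FSTL3 was lowest and LBP replicate 2 highest, as in the members themselves, but other groups did not follow the members. Vehicle averaged 0.00498% in batch 1 and 0.00984% in batch 2, where the members averaged 0.346% and 0.364%. FCN2 averaged 0.0112%, above vehicle of batch 2, where its members averaged 0.315%, below that vehicle.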
